A study of Mus musculus with 36 samples.

Results

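CircRNAs of 8 host genes that encode Homer1 and other scaffold proteins of the postsynaptic density were described in the mouse hippocampus (HC) and frontal cortex (FC). A circRNA was a member when both of its ends lay inside Homer1, Dlg1, Dlg2, Dlgap1, Anks1b, Shank2, Magi1 or Magi2 on the strand of the gene (GENCODE M21, GRCm38). By this rule 226 of 33259 circRNAs were members, and 29473 circRNAs of 6581 host genes lay inside some gene on its strand. In HC 166 of 23730 circRNAs were members, and in FC 147 of 19811. The tissues came from adult male C57BL/6 mice (C57BL6/N in the methods of the study) kept under a light and dark cycle, at ZT1, ZT5 and ZT9 in the light phase and ZT13, ZT17 and ZT21 in the dark phase, where ZT is the time in hours after lights on. Each of the 12 groups of one tissue and one time point held 3 biological replicates, 36 samples in all. Mice of different time points were different animals, and whether a hippocampus and a frontal cortex of the same number came from the same animal is not given in the sources used here.

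A circRNA forms when the spliceosome joins the end of an exon to the start of the same or an earlier exon, so that the RNA closes into a ring that lacks free ends. Many circRNAs of the brain come from genes of the synapse, and circles of Homer1 are among those known in neurons. The postsynaptic density is the protein mesh under the membrane of an excitatory synapse. In it the MAGUK proteins of the Dlg genes bind receptors, Dlgap1 links the MAGUK layer to the Shank proteins, Homer1 links Shank to metabotropic glutamate receptors, Anks1b binds to the MAGUK proteins, and Magi1 and Magi2 are further scaffold proteins with an inverted order of domains.

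The junctions of the circles with the most reads in 6 of the genes are shown first, because a circular read is recognised only by this sequence. Each line gives the last 30 bases of the last exon in lower case and then the first 30 bases of the first exon in capitals, 5' to 3', from the GENCODE M21 transcripts (GRCm38). Exons are numbered within the named transcript. The leading Dlg2 and Shank2 circles do not join annotated exons at both ends and are not shown.
Homer1-202 exons 2 to 5, chr13:93341756-93356079, plus strand: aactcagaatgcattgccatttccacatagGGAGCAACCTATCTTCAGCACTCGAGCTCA
Dlg1-206 exons 12 to 14, chr16:31796866-31812824, plus strand: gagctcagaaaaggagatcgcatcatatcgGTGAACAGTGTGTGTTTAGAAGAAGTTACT
Dlgap1-207 exons 9 to 11, chr17:70761075-70787209, plus strand: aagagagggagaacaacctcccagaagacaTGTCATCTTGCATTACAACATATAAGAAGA
Dlgap1-207 exons 9 to 10, chr17:70761075-70766089, plus strand: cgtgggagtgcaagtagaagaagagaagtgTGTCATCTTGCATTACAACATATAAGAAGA
Anks1b-233 exons 5 to 8, chr10:90069468-90077142, plus strand: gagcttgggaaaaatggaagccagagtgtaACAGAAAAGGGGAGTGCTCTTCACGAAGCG
Anks1b-233 exons 4 to 8, chr10:90049816-90077142, plus strand: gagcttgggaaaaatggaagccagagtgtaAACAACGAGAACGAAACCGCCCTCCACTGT
Anks1b-214 exons 5 to 8, chr10:90895099-90923602, plus strand: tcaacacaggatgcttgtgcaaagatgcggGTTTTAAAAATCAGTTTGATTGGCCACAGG
Magi1-208 exons 6 to 10, chr6:93755014-93773689, minus strand: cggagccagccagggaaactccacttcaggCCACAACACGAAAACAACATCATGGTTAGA
Magi2-201 exons 13 to 16, chr5:20543585-20569354, plus strand: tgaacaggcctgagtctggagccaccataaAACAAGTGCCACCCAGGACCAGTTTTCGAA
The Dlgap1 pair opens with the same exon, so the capitals are the same and the last exon differs. The upstream Anks1b pair closes with the same exon, so the lower-case stretch is the same and the first exon differs. In all 9 the exons inside the circle are coding in the named transcript.

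The depth of the libraries sets the limits of all counts. A library held 6754 to 73252 circular reads in HC and 8107 to 34803 in FC. The members held 5177 of 431196 circular reads in HC (1.2%) and 4680 of 362041 in FC (1.29%). HC ZT1 replicate 3 was the deepest library, and HC ZT13 replicate 1 and FC ZT9 replicate 3 the shallowest of their tissues. The labels of the tissues were checked by marker genes of which circRNAs were tested. Circular reads of Prox1 and Zbtb20, transcription factors of hippocampal neurons, were higher in HC by 4.41 and 1.85 on the log2 scale. These were the 2 tested of 5 hippocampal genes, all with reads. Of the list for cortex 6 of 8 genes had reads and 2 were tested with edgeR. Of these 1 was lower in HC, and the other did not differ (0.10, adjusted p = 0.862). None of 5 microglial marker genes had a circular read. Of the astrocyte list 2 of 5 genes had reads, with a summed share of 0% to 0.0367% of the reads of a sample in HC and 0% to 0.0203% in FC, and Gfap, Aqp4 and Gja1 were at 0. Of the oligodendrocyte list 3 of 5 had reads, 0% to 0.0237% in HC and 0% in every FC sample, and Mog was at 0. Of the list for inhibitory neurons 3 of 4 had reads, 0% to 0.103% in HC and 0% to 0.0292% in FC, with Slc32a1 at 0. The part of cell composition in the differences below was not tested, and in tissue RNA fewer cells of one type and less RNA per cell cannot be told apart.

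The number of circles differed widely among the genes. Anks1b gave 42 circRNAs, Magi2 41, Dlg2 38, Dlg1 34, Dlgap1 34, Magi1 21, Homer1 8 and Shank2 8, where the median host gene of the series gave 2. The genes lie at chr10:89873509-90973300 (Anks1b), chr5:19227036-20704792 (Magi2), chr7:90476672-92449247 (Dlg2), chr16:31663443-31875129 (Dlg1), chr17:69969073-70821413 (Dlgap1), chr6:93675455-94283917 (Magi1), chr13:93299635-93405129 (Homer1) and chr7:144001928-144424494 (Shank2) in GRCm38, with Magi1 on the minus strand and the others on the plus strand. By reads, Anks1b ranked 24 and Dlgap1 39 among the 6581 host genes, Homer1 106, Dlg1 146, Magi2 151, Dlg2 264, Magi1 750 and Shank2 2258. Homer1 thus had few circles and many reads, with 1246 reads from 8 circles, whereas Magi2 had 912 reads from 41 circles. Of the 226 members 111 (49.1%) were found in 1 sample and 87 (38.5%) in both tissues, against 57.3% and 33.7% of all circRNAs inside genes. At some time point 2 or more replicates held the same circle for 46 members in HC and 50 in FC, 62 in either, of which 57 had reads in both tissues.

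**Figure D1:**
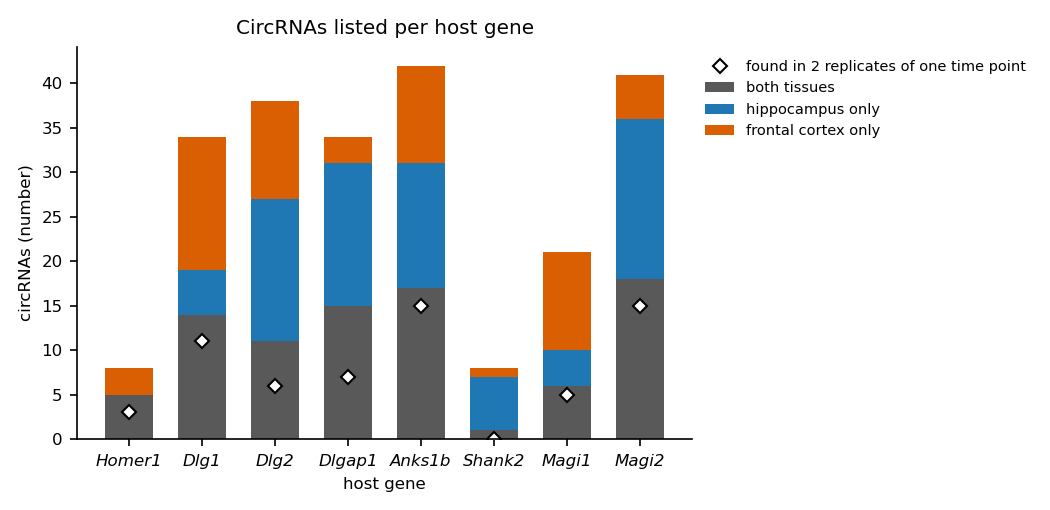
Number of circRNAs listed per host gene (y axis) by the tissue in which they had reads, over 18 samples per tissue. Open diamonds give the number present in 2 or more replicates at some time point, which is 15 for Anks1b and Magi2, 11 for Dlg1 and 0 for Shank2.

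The tissues did not list the same circles, and this held for the whole series as well. Reads in both tissues were found for 38.5% of the members and 33.7% of all circRNAs inside genes. Among those present in 2 replicates of a time point the shares were 91.9% and 89.9%. Dlg1 had 15 circles with reads in FC only and 5 in HC only, and Magi1 had 11 and 4. For Dlgap1 the numbers were the other way, with 3 circles in FC only and 16 in HC only. Magi2 had 5 and 18, Dlg2 11 and 16, Anks1b 11 and 14. HC held more circular reads in sum than FC, and 24 of the 38 Dlg2 circles and 22 of the 42 Anks1b circles were seen in 1 sample. The part of depth in these numbers was not tested. No test was made on the number of circles.

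By time point, the number of Anks1b circles with reads in any replicate was between 11 at ZT13 and 18 at ZT1 in HC. In FC it was 12 at ZT1, ZT9 and ZT13 and 19 at ZT17 and ZT21. Dlgap1 gave 11 at ZT13 to 13 at ZT1 and ZT17 in HC, and in FC 5 at ZT1 and ZT13 to 9 at ZT21. Magi2 gave between 7 at ZT13 and 24 at ZT1 in HC and between 7 at ZT9 and 19 at ZT21 in FC. For Dlg1 the range was 4 at ZT13 to 12 at ZT1 and 8 at ZT5 and ZT9 to 15 at ZT17, and for Dlg2 4 at ZT21 to 12 at ZT1 and 3 at ZT13 to 9 at ZT21. Homer1 gave 3 to 5 and 3 to 6 circles, and Magi1 1 to 7 and 4 to 9. In HC the highest number fell at ZT1, the time point with the deepest library, for 6 of these 7 genes (with ZT17 for Dlgap1), and the lowest at ZT13, the time point with the shallowest, for 6 of 7 (with ZT9 and ZT17 for Homer1). Thinned to 6754 reads per sample, the numbers in HC over time were 6 to 8 circles for Anks1b, 2 to 6 for Dlgap1, 3 to 8 for Magi2, 1 to 3 for Dlg1, 1 to 4 for Dlg2 and 1 to 4 for Homer1.

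The circles of these genes spanned more of the genome than others. The median distance between the ends was 32580.5 bases in the members and 11474 in all circRNAs inside genes, and 52 members (23%) spanned over 100000 bases against 6.1% of all. The gap was smaller among circles present in 2 replicates of a time point. There the medians were 26093 and 13583.5 bases, and 6 of 62 members (9.68%) spanned over 100000 bases against 4.54%. The host genes are long, from 105 kb for Homer1 to 1970 kb for Dlg2. Both ends lay on annotated exon boundaries in 74.8% of the members and 71.7% of all circRNAs inside genes, and in 94.3% and 90.7% of their reads. For 168 members one transcript held both boundaries. These circles had a median of 4 exons and 579 bases after splicing, with 9 single-exon circles, and none held the first exon of its transcript. Of them 76 had a length that is a multiple of 3, and 9 held the annotated start codon.

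A few exon boundaries carried a large share of the reads. In Dlgap1 4 circles that share the start of exon 9 (chromosome 17, 70761075) held 87.9% of the reads of the gene. In Dlg1 6 circles that share the end of exon 14 (chromosome 16, 31812824) held 74.3%, and in Anks1b 5 circles that share the end of exon 8 of Anks1b-233 (chromosome 10, 90077142) held 61.6%. In Magi2 5 circles from the start of exon 13 (chromosome 5, 20543585) held 43.8%, and in Magi1, on the minus strand, 5 circles that share the end of exon 12 (chromosome 6, 93745434) held 49.3% and 4 from the start of exon 6 (93773689) held 42.4%. In Dlg2 most reads came from a single circle. It lay at chr7:91626329-91626813 on the plus strand, spanned 485 bases and held 62.9% of the reads of the gene, and 1 other circle, with 2 reads, shared its start. Neither end is an annotated exon boundary, no annotated Dlg2 exon overlaps it, and the nearest Dlg2 exons end 176414 bases upstream and start 45679 bases downstream. Thus 31.5% of the Dlg2 reads joined annotated boundaries, against 96.1% to 99.8% in Homer1, Dlg1, Dlgap1, Anks1b, Magi1 and Magi2.

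**Figure D2:**
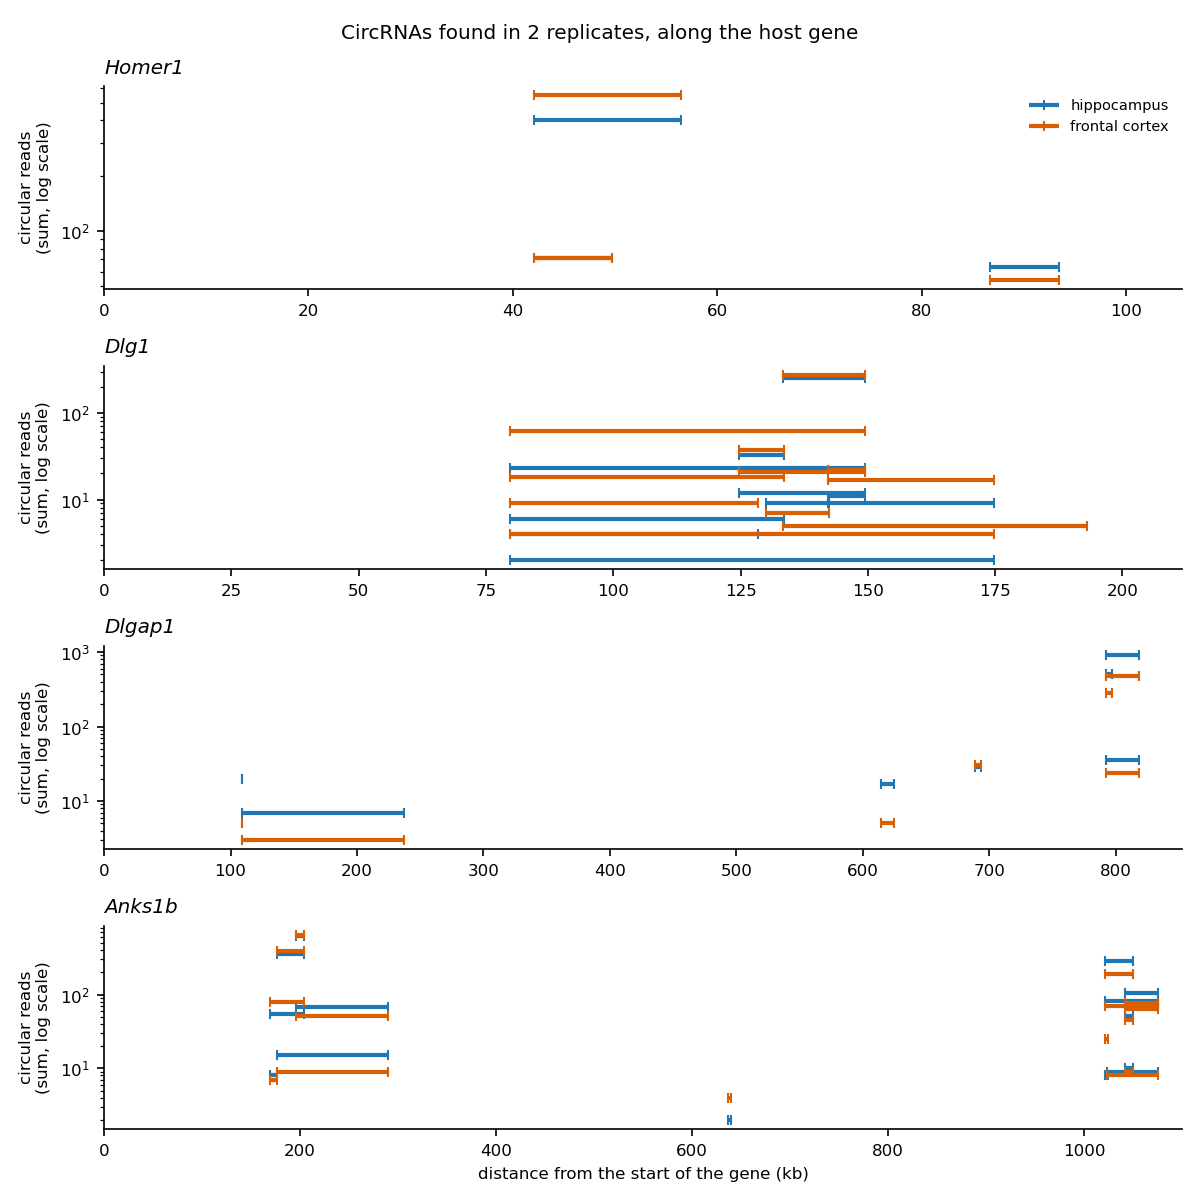
CircRNAs of Homer1, Dlg1, Dlgap1 and Anks1b that were present in 2 or more replicates at some time point, drawn from start to end as the distance from the start of the gene in kb (x axis) at the sum of their circular reads in each tissue (y axis, log scale). Circles of Anks1b fall into an upstream and a downstream region, and those of Dlgap1 with the most reads lie near the end of the gene; bars of equal height hide each other.

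Some circles of related genes opened with related exons. The first 30 bases of the first exon were compared between all circles of different genes for which one transcript held both boundaries, 2661 pairs of exons. At least 18 of 30 bases matched in 9 pairs, and all 9 were pairs of Dlg1 with Dlg2 or of Magi1 with Magi2, which made up 252 of the pairs. The highest value among the other 2409 pairs was 16, and the median was 8 in both sets. The lines show 4 of these pairs, with matching bases in capitals.
Dlg1-206 exon 11, chromosome 16, from 31793504: GTcTtGGgTTCAGcATTGCTGGAGGtGTtG
Dlg2-204 exon 7, chromosome 7, from 91939999: GTtTaGGcTTCAGtATTGCTGGAGGgGTgG
Dlg1-206 exon 8, chromosome 16, from 31788082: GTtAATGGcACtGAtgcaGAtTATGAATaT
Dlg2-204 exon 4, chromosome 7, from 91810479: GTcAATGGaACaGAaattGAaTATGAATtT
Dlg1-206 exon 5, chromosome 16, from 31743106: AAaTAcCGgTAtCAgGATGAaGAgGtaCtt
Dlg2-204 exon 2, chromosome 7, from 91449754: AAgTAtCGaTAcCAaGATGAgGAcGgtCca
Magi1-208 exon 16, chromosome 6, from 93701381: tTCCAGATTAccAGGAACaGGAcaTcttCC
Magi2-202 exon 12, chromosome 5, from 20550207: gTCCAGATTAtaAGGAACtGGAtgTtcaCC
The third pair, with 19 matching bases, was the most used of these in reads. Exon 5 of Dlg1-206 opened 9 of the 34 Dlg1 circles (149 reads), and exon 2 of Dlg2-204 opened 5 of the 38 Dlg2 circles (75 reads). The Dlg2 exon also closed on itself. This circle of 162 bases (chr7:91449754-91449915) had 19 reads in HC and 39 in FC, and its whole sequence is shown with the first 30 bases in capitals.
Dlg2-204 exon 2: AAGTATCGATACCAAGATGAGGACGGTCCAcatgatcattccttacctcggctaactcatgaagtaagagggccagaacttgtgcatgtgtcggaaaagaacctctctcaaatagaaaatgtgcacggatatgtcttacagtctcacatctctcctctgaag

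The tissues were compared first, to ask which of these genes give different amounts of circular RNA in HC and FC relative to other circRNAs. The sums of circular reads per host gene were tested in all 36 samples with edgeR's quasi-likelihood test, and p-values were adjusted over all host genes that passed the filter on low counts. Of the 8 genes 7 passed it, and Shank2 did not. In HC alone Magi1 did not pass the filter either. Magi1 thus entered the test through FC, where its reads are higher, and its call below does not stand apart from the filter. An adjusted p under 0.05 was reached by 4 of the 7, against 31.3% of the 792 host genes tested. Dlgap1 was higher in HC, where 16% of all host genes were, and Homer1, Dlg1 and Magi1 were lower, where 15.3% were. The median log2 fold change of HC over FC was -0.36 in the 7 genes, Magi1 included, and 0.03 in all. Single circles were tested in the same way when 2 or more replicates of a time point held them. Only 10 of the 226 members passed the filter on low counts, which keeps circles with many reads. The counts below thus speak of these circles alone. Within HC alone 8 of the 10 passed the filter, and within FC alone all 10. Of the 10 circles 5 reached an adjusted p under 0.05, against 30.6% of the 710 circles tested, 2 higher in HC (16.5% of all) and 3 lower (14.1%). With the 10 circles, those that entered through FC included, the median log2 fold change was -0.30, and 0.02 in all. Normalized reads in the following are scaled by edgeR's TMM factors to the mean library of the table tested, and rest on circular reads alone. Linear RNA of the genes was not analysed here, so that more circles from a transcript and more transcript cannot be told apart.

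**Figure D3:**
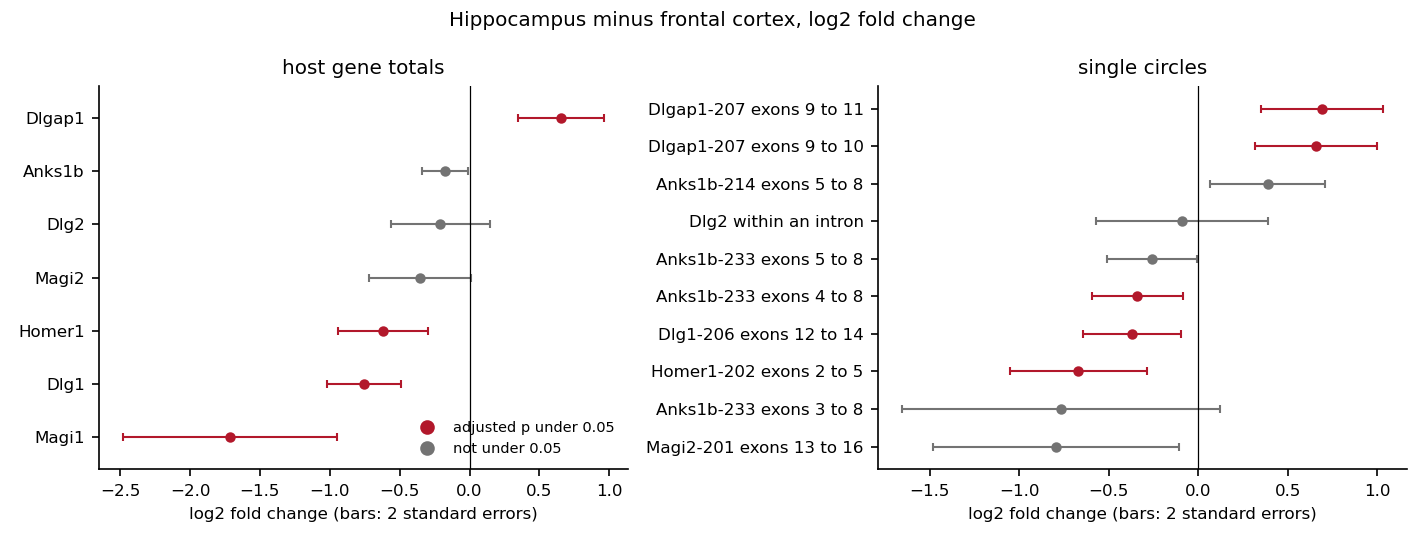
Log2 fold change of HC over FC (x axis) for the totals of 7 host genes (left) and the 10 single circles tested (right), with bars of 2 standard errors. Red points had an adjusted p under 0.05, which are Dlgap1 above 0 and Homer1, Dlg1 and Magi1 below 0 among the totals.

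Homer1 gives the postsynaptic adaptor that joins metabotropic glutamate receptors to the Shank layer. The total of its circles was between 0 and 45.8 normalized reads in the 18 HC samples, with a median of 27.5, and between 4.77 and 66.8 in the 18 samples of FC, with a median of 41.5. The tissues overlapped, with 2 HC samples above the median of FC and 17 samples of FC above the median of HC. The difference was -0.62 on the log2 scale (SE 0.16, adjusted p = 0.00236). The 0 came from HC ZT13 replicate 1, the shallowest library, and the lowest value of FC from ZT9 replicate 3. The circle of exons 2 to 5 held 76.5% of the Homer1 reads and was lower in HC by itself, with a median of 20.7 (0 to 28.3) against 30.5 (0 to 52) normalized reads. No HC sample reached the median of FC for this circle, and its log2 fold change was -0.67 (SE 0.19, adjusted p = 0.00694). The next 2 circles had too few reads to be tested and showed no such gap in raw reads. Exons 2 to 4 of Homer1-204, which share the start, gave 71 reads in HC and 71 in FC, and exons 6 to 9 of Homer1-203 gave 64 and 54. Within the pair that shares its start, the longer circle held 85.1% of the reads in HC and 88.5% in FC.

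Dlg1 encodes SAP97, a MAGUK protein that takes part in the traffic of glutamate receptors. Its total was between 10.6 and 34.7 normalized reads in HC, with a median of 18.4, and between 19.1 and 44.5 in FC, with a median of 34.4. All 18 samples of FC lay above the HC median, and 1 of 18 HC samples lay above that of FC. The log2 fold change was -0.76 (SE 0.13, adjusted p = 1.3e-05). For the circle of exons 12 to 14, which held 57.1% of the reads, the difference was smaller. Its median was 12.6 (7.51 to 21.4) in HC and 17.1 (4.07 to 24.8) in FC, and the log2 fold change was -0.37 (SE 0.14, adjusted p = 0.0358). This call was lost in 32 of the 36 fits that left out 1 sample, with adjusted p up to 0.123. The circle of exons 12 to 14 made up 65.5% of the Dlg1 reads in HC and 51% in FC, with a range over samples of 41.7% to 100% and 25% to 87.5%. This difference in share was not tested. Exons 5 to 14, which close at the same boundary, gave 23 reads in HC and 62 in FC, and the 9 circles that open with exon 5 gave 37 and 112. With 1 Dlg1 circle past the filter, the use of circles within the gene was not tested.

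Dlg2 encodes PSD-93, another MAGUK protein of the synapse. Its total was between 4.13 and 25.2 normalized reads in HC, with a median of 13.7, and between 4.36 and 33.4 in FC, with a median of 17.1. The groups overlapped widely, and the difference did not pass the test (log2 fold change -0.21, 2 standard errors on either side -0.56 to 0.14, adjusted p = 0.404). The circle within the intron had a median of 10.2 (2.79 to 18.4) normalized reads in HC and 9.35 (0 to 28.5) in FC. Its log2 fold change was -0.09 (-0.57 to 0.39, adjusted p = 0.834). Of the reads of the gene it held 65.4% in HC and 60.3% in FC.

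Dlgap1 encodes the protein that links the MAGUK layer to Shank, and its normalized total was higher in HC. Its total was between 0 and 108 normalized reads in HC, with a median of 84.9, and between 26.2 and 69.4 in FC, with a median of 52.6. Of the 18 HC samples 17 lay above the median of FC, and no sample of FC reached the HC median. The log2 fold change was 0.66 (SE 0.15, adjusted p = 0.000782). Both leading circles were higher in HC. For exons 9 to 11 the median was 45.6 (0 to 63.2) in HC and 28.1 (16.2 to 46.1) in FC, with a log2 fold change of 0.69 (SE 0.17, adjusted p = 0.00197). For exons 9 to 10 it was 27.2 (0 to 36.7) and 17.5 (0 to 25.1), with a log2 fold change of 0.66 (SE 0.17, adjusted p = 0.00352). Of the reads of this pair the longer circle held 63.9% in HC and 62.4% in FC, and the test of circle use within the gene gave an adjusted p of 0.934. The 12 host genes of 119 that passed this test were 10.1%.

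One library went against the rest. In HC ZT13 replicate 1 no circular read of Dlgap1 was found, where the share in the other 17 HC samples gives 25.9 reads at its depth of 6754. The median share in the tissue was 0.382%. As counts of 1 are not listed, a listed 0 can hide single reads of several circles. Over all samples, 7178 pairs of a sample and a host gene had an expectation of at least 20 reads, and this was the one pair listed at 0. At an expectation of at least 8 reads, 13 of 150 host genes were listed at 0 in this library, Homer1 among them, against 0 to 7 of 427 to 1284 in the other HC libraries, 10 of 173 in FC ZT9 replicate 3 and 122 of 19269 pairs over all samples. The same library had 0 reads of Homer1, where 8.74 were expected, and 0 of Magi2, where 7.19 were, but 31 of Anks1b (28 expected), 6 of Dlg1 (6) and 10 of Dlg2 (4.54). In FC ZT9 replicate 3, the shallowest of that tissue, Homer1 had 2 reads (15.9 expected), Dlgap1 11 (19.3), Anks1b 56 (37.8) and Dlg2 14 (6.02). Without these libraries and HC ZT1 replicate 3, 4 totals and 5 circles of the members passed the test, as with them.

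**Figure D4:**
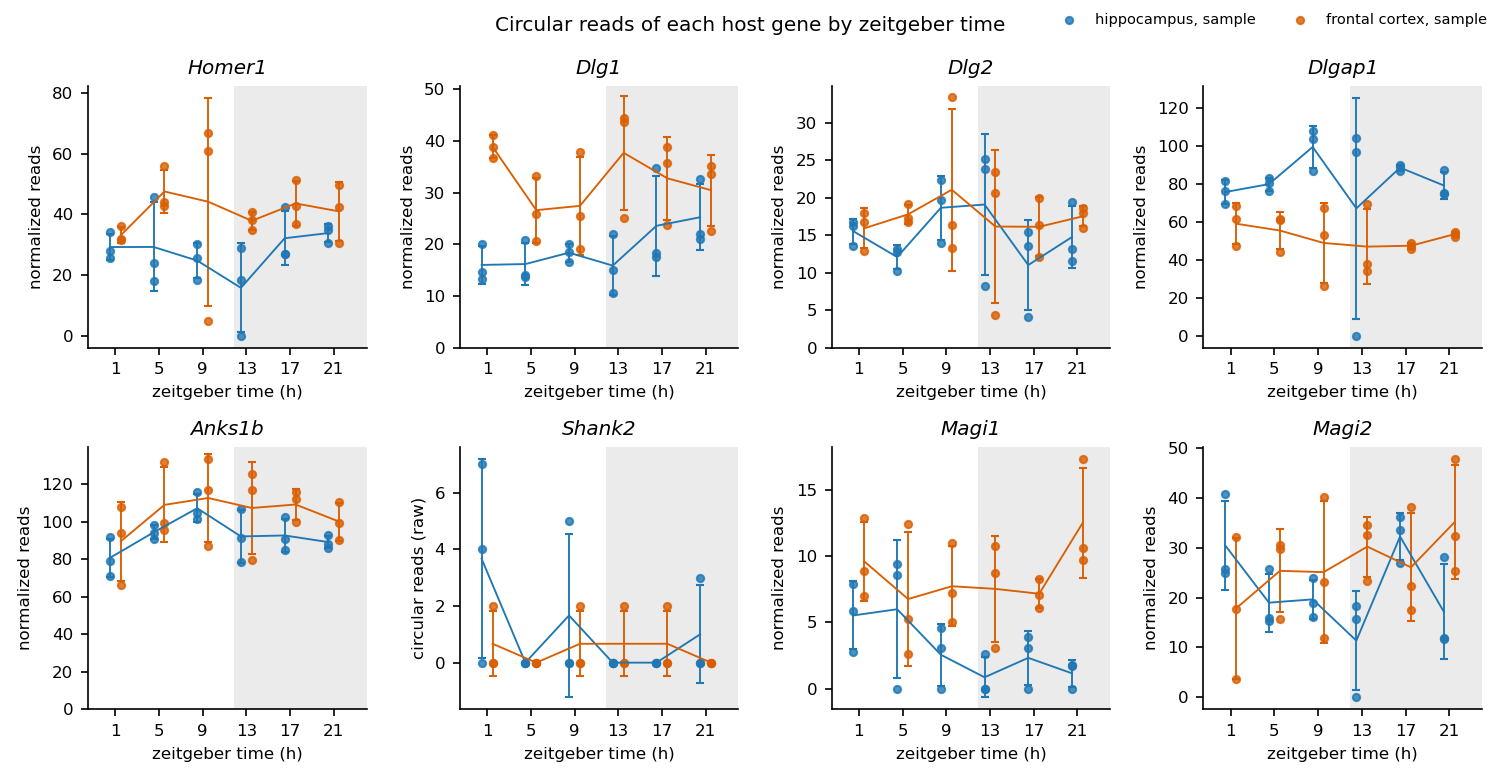
Normalized circular reads of each host gene (y axis; raw reads for Shank2) by zeitgeber time in hours (x axis, dark phase shaded), with points for samples and lines with bars for the mean and SD of 3 replicates. The mean of Dlgap1 lies higher in HC at all 6 time points, with 1 sample at 0 at ZT13, and the means of Homer1, Dlg1 and Magi1 lie lower there at all 6.

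Shank2, a scaffold at the base of the postsynaptic density, gave few circular reads. There were 19 in HC and 8 in FC, each from 4 samples. In HC 4 and 7 reads came from ZT1 replicates 1 and 3, 5 from ZT9 replicate 1 and 3 from ZT21 replicate 3, and in FC each of the 4 samples had 2 reads. None of its 8 circles was present in 2 replicates of a time point. Shank2 was not tested, and a difference between the tissues was not detectable at this depth.

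Anks1b encodes AIDA-1, a partner of the MAGUK proteins, and held the most reads of the 8 genes. The total was between 71.3 and 116 normalized reads in HC, with a median of 91.5, and between 66.5 and 134 in FC, with a median of 104. The difference did not pass the test (log2 fold change -0.18, 2 standard errors on either side -0.34 to -0.01, adjusted p = 0.107). Its circles came from separate parts of the gene. In the upstream part, from 90033214 to 90359215 on chromosome 10, 14 circles held 1134 reads in HC and 1196 in FC. In the downstream part, from 90462351 to 90970373, 28 circles held 654 and 512. None reached across the middle of the gene. The 3 upstream circles tested, exons 5 to 8, 4 to 8 and 3 to 8 of Anks1b-233, and the 1 downstream circle tested, exons 5 to 8 of Anks1b-214, had log2 fold changes of opposite sign. Exons 4 to 8 had a median of 18.5 (11.2 to 25.3) normalized reads in HC and 22.8 (12.5 to 40.7) in FC, with a log2 fold change of -0.34 (SE 0.13, adjusted p = 0.0386). This call was kept in 12 of 43 alternative fits. Exons 5 to 8 of Anks1b-233 had a median of 34.2 against 41.7 and a log2 fold change of -0.26 (adjusted p = 0.122). Exons 3 to 8 gave -0.76 (adjusted p = 0.203). The circle of exons 3 to 8 passed the filter within FC but not within HC, so its sign does not stand apart from the filter. The downstream circle had a median of 15.2 (6.89 to 23.4) in HC and 11.1 (4.07 to 19.8) in FC, with a log2 fold change of 0.39 (SE 0.16, adjusted p = 0.0631).

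The use of Anks1b circles differed between the tissues in the fit of all samples. The gene passed the test of circle use (adjusted p = 0.0215, 4 circles), and the downstream circle was higher in HC relative to the other Anks1b circles by 0.59 on the log2 scale (adjusted p = 0.0329). All downstream circles together held 36.6% of the reads in HC, with a range over samples of 16.1% to 48.9% and a median of 35.2%. In FC they held 30%, with a range of 3.57% to 41.3% and a median of 29.3%. The tissues overlapped. Anks1b did not pass without the 3 libraries that stood apart, without the filter on low counts, with a block for the replicate, or in 20 of the 36 fits that left out 1 sample.

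**Figure D5:**
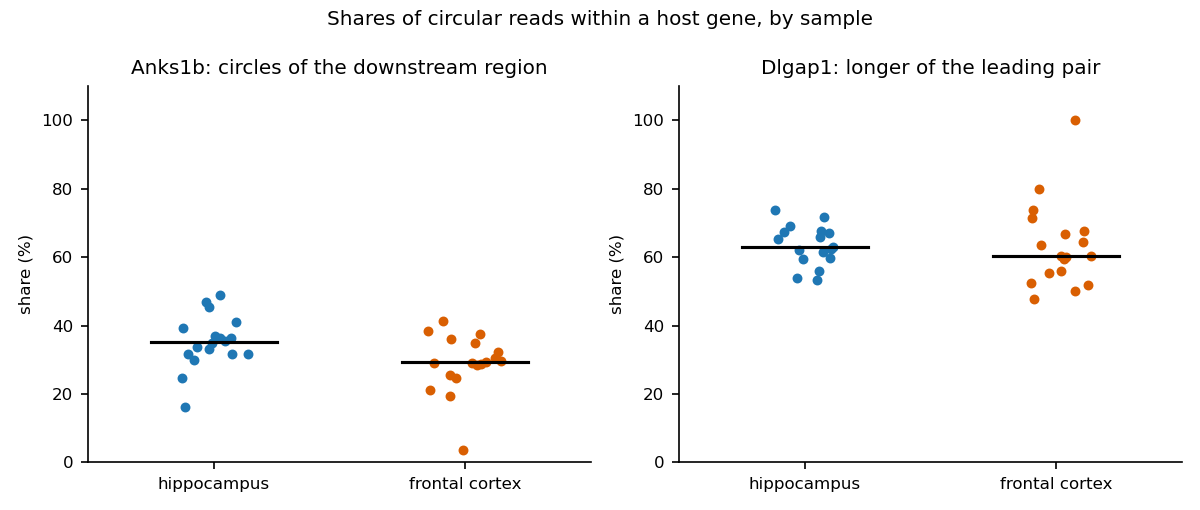
Share in percent (y axis) of the downstream circles among the Anks1b reads (left) and of the longer circle in the leading pair of Dlgap1 (right) in each sample, with the median as a line. The medians are 35.2% and 29.3% for Anks1b and 62.9% and 60.4% for Dlgap1 in HC and FC; 1 HC sample without Dlgap1 reads is left out.

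Magi1 and Magi2 encode inverted MAGUK proteins. Magi1 showed the widest gap of the 7 genes tested, from few reads. Magi1 passed the filter on low counts within FC but not within HC, and so entered the test through the tissue where it is higher. Its total was between 0 and 9.44 normalized reads in HC, with a median of 2.71 and 6 of 18 samples at 0, and between 2.59 and 17.3 in FC, with a median of 8.53 and no sample at 0. Of the samples of FC 17 lay above the HC median, and 2 HC samples above that of FC. The log2 fold change was -1.71 (SE 0.38, adjusted p = 0.000457). In raw reads the sum was 64 in HC and 141 in FC. No Magi1 circle passed the filter on its own. The leading one, exons 6 to 10, gave 14 and 47 reads, exons 11 to 12 gave 17 and 42, and exons 6 to 12 gave 11 and 9. The Magi2 total had a median of 21.4 (0 to 40.8) in HC and 27.5 (3.7 to 47.8) in FC and did not pass (log2 fold change -0.36, adjusted p = 0.137). Its circle of exons 13 to 16 had a median of 4.54 against 7.39 normalized reads and a log2 fold change of -0.79 (SE 0.34, adjusted p = 0.0794). Like Magi1, this circle passed the filter within FC but not within HC. Its log2 fold change came to -1.415 (adjusted p = 0.0149) without HC ZT13 replicate 3. In that fit the remaining HC ZT13 replicates were at 0, so the value rests on a group without reads and shows no wider gap. The circle also passed without FC ZT9 replicate 3 or FC ZT13 replicate 1.

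The time points were compared within each tissue, to ask whether circular RNA of these genes follows the light cycle relative to other circRNAs. The scaling rests on circular reads alone, so a rise or fall of all circRNAs together is divided out and could not be seen. Over 6 time points none of the members passed the test with edgeR. In HC 6 genes and 8 circles were tested, where 0.143% of all host genes and 0% of all circles passed, and in FC 7 genes and 10 circles, where 0.157% and 0.193% passed. At an unadjusted p under 0.05 stood 1 of the 6 genes in HC, against 3.59% of all host genes, and none of the 8 circles (3.26% of all). In FC none of the 7 genes (2.98% of all) or 10 circles (2.32% of all) did. The 1 gene was Magi2 (adjusted p = 0.998), with a mean of 32.3 ± 4.73 (SD, n = 3) normalized reads at ZT17 and 11.4 ± 9.92 (SD, n = 3) at ZT13, where the lowest replicate was the library at 0. For the other totals tested, the ratio of the highest to the lowest mean of a time point lay between 1.33 for Anks1b and 2.14 for Homer1 in HC, where the lowest Homer1 mean was again that of ZT13. In FC it lay between 1.26 for Anks1b and Dlgap1 and 1.97 for Magi2.

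The dark phase was also set against the light phase, with 9 samples each and on the same scale relative to other circRNAs. No member passed in either tissue, and 0% of all circles and of all host genes did. The log2 fold change of dark over light in HC was between -0.19 for Magi2 and 0.32 for Dlg1 among the 6 totals, with a median of -0.05 against -0.03 over all host genes. In FC it was between -0.17 for Dlgap1 and 0.36 for Magi2, with a median of 0.01 against 0.03. For the Anks1b total the bounds of 2 standard errors were -0.23 to 0.18 in HC and -0.25 to 0.28 in FC, for Dlgap1 -0.51 to 0.35 and -0.52 to 0.17, and for Homer1 -0.45 to 0.42 and -0.50 to 0.38. Of the totals none was under an unadjusted p of 0.05 in HC (4.16% of all host genes) or FC (3.3%). Of the circles none of 8 was in HC (4.81% of all) and 1 of 10 in FC (3.09%). The 1 was exons 3 to 8 of Anks1b-233, at -1.63 (SE 0.60, adjusted p = 0.993), with means between 6.11 and 9.88 normalized reads at the light time points and between 1.45 and 4.87 in the dark. The leading pair of Dlgap1 had opposite signs in FC, -0.38 (adjusted p = 0.993) for exons 9 to 11 and 0.34 (adjusted p = 0.993) for exons 9 to 10, and neither passed.

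Whether the difference between dark and light itself differs between the tissues was tested as an interaction of tissue and phase for the 7 totals. None passed, and 0% of all host genes did. At an unadjusted p under 0.05 stood 1 of 7, against 5.43% of all. It was Magi1 (-1.72, SE 0.77, adjusted p = 0.875), at -2.744 (adjusted p = 0.603) without HC ZT13 replicate 3. In that fit the remaining HC ZT13 replicates were at 0, so the value rests on a group without reads. The HC means of Magi1 were 5.53 at ZT1, 6 at ZT5 and 2.58 at ZT9. They were 0.88 at ZT13, 2.32 at ZT17 and 1.15 at ZT21, and those of FC lay between 6.77 and 12.5. Magi1 did not pass the filter within HC and was not tested there.

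Other genes of the postsynaptic density were compared in the same fits. Of a list of 50 such genes 47 had circRNAs, 451 in all with 11319 reads, and 13 passed the filter as totals. Of these 4 reached an adjusted p under 0.05, beside the 31.3% of all host genes. Circular reads of Erbin, a partner of the MAGUK proteins, were higher in HC (log2 fold change 1.16, SE 0.27, adjusted p = 0.000667). Those of Sorbs2 (-1.02, SE 0.15, adjusted p = 7.66e-07), an adaptor of the actin cytoskeleton, Lrrc7 (-0.44, SE 0.16, adjusted p = 0.0306), which encodes densin, and Ppp1r9a (-0.66, SE 0.25, adjusted p = 0.04), which encodes an actin-binding neurabin, were lower. Erbin passed the filter on low counts within HC but not within FC, and so entered the test through the tissue where it is higher. Its call thus does not stand apart from the filter. The median of the 13, Erbin included, was -0.10. Arhgap32, Cnksr2, Cttnbp2, Epb41l1, Grip1, Kalrn, Shank3, Sipa1l1 and Tanc2 did not pass, and Shank3, at -0.10 (adjusted p = 0.625), was the Shank gene with enough reads to be tested. In the time comparisons with edgeR none of the list passed. Over the 6 time points none of its totals or circles stood at an unadjusted p under 0.05, against 2.32% to 3.59% of all features. For dark against light in FC 1 of 11 totals (3.3% of all host genes) and 1 of 8 circles (3.09% of all circles) did. In HC none of 13 totals (4.16% of all) and 9 circles (4.81% of all) did. For the interaction 3 of 13 totals did, against 5.43% of all host genes.

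The host genes whose circular reads were most like those of a member were found by Spearman's rho over the 12 means of tissue and time, among 791 other host genes. These 12 points hold the difference between the tissues, and no test was made. Dlgap1 was most like Mpp6 (rho 0.958) and Phkb (0.951), Magi1 like Mlip (0.916), and Dlg1 like Stk39 (0.909) and Tmem132d (0.895). Homer1 was most like A230006K03Rik and Cntn5 (0.888 each), and Anks1b like Ica1 (0.888) and Nova2 (0.846). The highest values were lower for Magi2, with Ogdh (0.783), and for Dlg2, with Csmd1 and Pcsk5 (0.741 each).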

How the data were processed

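The authors depleted RNA of both tissues of ribosomal RNA, sequenced it, mapped reads to GRCm38 with BWA, and identified circRNAs with CIRI2 under default parameters. The values the authors deposited are, for each circRNA and sample, a raw count of reads across the circle junction, as whole numbers without normalization or pooling of replicates. The smallest count above 0 was 2, so a listed 0 can stand for 1 read of a circle. A circRNA absent from the table of one tissue was set to 0 there. The hippocampal table holds 1 further count column that was not used here.

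A host gene was a GENCODE M21 gene that holds both ends on its strand, with the shortest protein-coding gene taken where several did. Circles without one held 2.84% of the reads. For single circles and sums per host gene the test came from edgeR 4.0.16 (R 4.3.3; TMM, its filter on low counts, quasi-likelihood test, Benjamini-Hochberg adjustment over all features tested), and for the use of circles within a gene from its diffSpliceDGE. The tests were checked on simulated counts. The filter keeps features by the size of the smallest group. Alternatives were scaling to total reads or by DESeq2's size factors, no filter, DESeq2 1.42.0, a block for the replicate number, other sets of circles, and leaving out libraries. Deviations from the group means correlated by -0.02 on average between samples of the same number in the 2 tissues, with 1 of 18 pairs over 0.1. For samples of different number at the same time the average was 0.008. With group means of 3 samples and low counts, this check could miss a shared animal. The labels do not say that a number marks an animal, so the numbers were not taken to pair the samples. Sequences came from the GENCODE M21 transcripts. Python 3.11.15, pandas 2.3.3, scipy 1.17.1 and matplotlib 3.10.9 were used.

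The text names the 8 genes, the circle with the most reads of each and the next 2, circles past the threshold, the 2 most like host genes, and genes of the wider list past the threshold. A few genes this rule or the marker lists hold are not reported here. The member genes and lists were chosen with earlier results of these data known. No limit on a share was set from a listed 0, and reads without molecular identifiers are not independent molecules. P-values set a difference against the spread between these samples.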

Additional observations from a re-analysis of the deposited data

Results flagged for a closer look

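In each tissue and phase, 9 samples were searched for one that stood far from the others, over 68 sets of values of the totals and the circles tested. By chance about 1 in 20 such sets would be marked, and 7 were. The sets are not independent, because the circles are parts of the totals and several marks came from the same library. No excess over chance can thus be read from the 7. In HC ZT13 replicate 1 the Dlgap1 total was 0 normalized reads, with 74.8 the next lowest, and both Dlgap1 circles were at 0, with 42.8 the next lowest for exons 9 to 11 and 19.8 for exons 9 to 10. The Homer1 circle of exons 2 to 5 was at 0 in the same library, with 14.9 the next lowest. In FC ZT9 replicate 3 the Dlg2 total was 33.4, with 19.2 the next highest, and the Dlg2 circle within the intron was 28.5, with 13.3 the next highest, both from 14 raw reads. In HC ZT1 replicate 1 the Magi2 total was 40.8 normalized reads, from 36 raw reads, with 25.7 the next highest. These are single libraries, and the cause was not tested.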

How the results depend on the processing

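The differences of the Dlg1, Dlgap1 and Homer1 totals between the tissues kept their direction and stayed past the threshold in 43 of 43 alternatives, and that of Magi1 in the 42 in which it was tested. So did the leading Homer1 circle and both Dlgap1 circles in 43 of 43. Magi1 passed the filter within FC but not within HC, so the fits that use the filter do not set its call apart from it. The calls of the Dlg1 circle of exons 12 to 14 and of the Anks1b circle of exons 4 to 8 depended on the settings. They were lost with scaling to total reads (adjusted p = 0.0538 and 0.0843) and without the filter (0.804 and 0.738, where 346 of 6656 circles passed), and the Dlg1 circle also with DESeq2 (0.0547). By DESeq2 the Anks1b total (adjusted p = 0.0422) and the Magi2 circle (0.029) passed, and by total reads the downstream Anks1b circle (0.0426). The Magi2 circle passed the filter within FC but not within HC. Anks1b passed the test of circle use in the fit of all samples, but the number of member genes past it was 0 without the filter and 0 without the 3 libraries. The cause was not tested.

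The replicate numbers were not taken to pair the samples. In a fit with a block for these numbers 3 of the 10 circles and 4 of the 7 totals passed between the tissues. In the fit without the block 30.6% of all circles and 31.3% of all host genes passed. With the block the adjusted p was 0.0957 for the Dlg1 circle and 0.0502 for the Anks1b circle. With the block 4 host genes and 0 members passed the test of circle use, and 0 host genes over the 6 time points in either tissue.

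Over the 6 time points no member passed under any alternative, and few features did. Without the filter 14 circles in HC, 12 in FC, 9 host genes in HC and 8 in FC passed, with DESeq2 0 circles in FC and 2 host genes in HC, with all listed circles 0 in FC, without the 3 libraries 0 host genes in HC and 2 in FC, and with circles of 2 replicates alone 0 host genes in FC. Of dark against light in HC, 1 circle passed with total reads, 1 with DESeq2 and 4 without the filter, and 2 host genes without the filter and 1 with circles of 2 replicates. For the interaction 2 host genes passed without the filter. Small differences of dark against light turned their sign. In HC the Homer1 total came to 0.010 with total reads, 0.011 with DESeq2's size factors, 0.035 with circles of 2 replicates and 0.073 without the 3 libraries, the Anks1b total to 0.002 with total reads and the Dlgap1 total to 0.078 without the 3 libraries. In FC the Homer1 total came to 0.011 without the filter and the Dlg1 total to -0.013 with circles of 2 replicates.

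The number of circles per gene moved most. Thinned to 6754 reads a sample, it was 5 for Homer1, 16 for Dlg1, 8 for Dlg2, 13 for Dlgap1, 16 for Anks1b, 1 for Shank2, 9 for Magi1 and 16 for Magi2. Counted in 2 replicates of a time point it was in the same order 3, 11, 6, 7, 15, 0, 5 and 15, and in 3 replicates 3, 3, 2, 4, 9, 0, 2 and 6.

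Leaving out each sample in turn gave 3 to 5 member circles and 4 member totals past the threshold between the tissues. Over all features 212 to 245 circles and 239 to 269 host genes passed there. In the test of circle use 0 to 1 member genes and 14 to 19 host genes did. In these fits the smallest group is 2, so that the filter let 805 to 844 circles into the test of single circles instead of 710. Without one sample, 0 to 1 circles passed over the 6 time points in either tissue and 0 to 2 host genes, and for dark against light 0 to 1 circles and 0 to 1 host genes in HC. The difference of the Dlg2 circle between the tissues ran from -0.146 to 0.077, the higher value without FC ZT9 replicate 3. Of dark against light in HC the Homer1 total ran from -0.171 to 0.14, the Anks1b total from -0.053 to 0.003 and the Dlgap1 total from -0.176 to 0.076, the last 2 highest without HC ZT13 replicate 1. In FC the Homer1 total ran from -0.173 to 0.08 and the Anks1b total from -0.024 to 0.093. The depth of the libraries limits these results to 10 of 226 circles.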

Other observations

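Circles of Anks1b also used starts that lie 3 bases apart. Start 90914693 on chromosome 10 gave 139 reads with the end at 90948672 and 19 reads with the end at 90923602, and start 90914696 gave 180 and 97 reads with the same ends. Both starts are annotated exon boundaries of Anks1b. The later start held 56.4% of the reads of the first pair and 83.6% of those of the second. No other circles of the 8 genes found in 2 replicates had ends 1 to 5 bases apart.

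A like pair of starts within an exon was seen in Dlgap1. The circle from 70761159 on chromosome 17, also an annotated boundary, closed at the same end as the leading circle, 70787209, and had 35 reads in HC and 24 in FC, against 910 and 470.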
